A study of Mus musculus with 2 samples.

Results

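The genes described here encode complement components, receptors and regulators, 35 genes chosen by name and measured in mouse lung after exposure to PM2.5, the fine fraction of airborne particulate matter. All 35 symbols were found through GENCODE M21 among the 37315 Ensembl identifiers of each count file. They were grouped by role as 13 genes of the classical and lectin pathways, 3 of the alternative pathway with C3, 7 of the terminal pathway, 5 receptors and 7 regulators. Polyadenylated RNA was sequenced from lungs of the inbred mouse strain C57BL/6, in 1 library from PM2.5 exposure with 57435027 counts and 1 control library with 62788045 counts. The titles of both hold 12W, with no explanation of it in the labels, and these give no sex, age, dose, route of exposure or number of animals behind each library. The label of lung tissue was borne out by the surfactant protein C gene Sftpc, at 1159636 counts in the PM2.5 library and 837001 in the control library. Adipocyte markers differed between the libraries, with 9 of 10 higher in the PM2.5 library and 1 lower. Among them Ucp1 had 4855 counts in the PM2.5 library and 8 in the control library, and Lep 276 and 8. Whether both samples held the same share of fat was not tested. With 1 library per group the differences have no replicate check and no test is possible, so each ratio has an exact 95% interval that covers counting error alone and describes these libraries, not the conditions. In whole tissue, fewer cells of a type and less RNA per cell cannot be told apart.

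Complement is a cascade of plasma and tissue proteins that marks particles and microbes for uptake and recruits leukocytes. The classical pathway starts when C1q binds antibody or damaged surfaces, the lectin pathway when collectins or ficolins bind sugars, and the alternative pathway amplifies deposited C3. All converge on C3 and then on C5, whose cleavage releases the anaphylatoxins C3a and C5a and starts assembly of the membrane attack complex from C5b to C9. The liver makes most of the plasma pool, while macrophages, fibroblasts and epithelium make components locally in the lung.

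Chains of C1q, properdin and several membrane proteins had more transcript in the PM2.5 library, whereas C5, C7, C1r and the C1q-receptor-like protein Cd93 had less. Genes with a mean level of 1 CPM or above (CPM being the count relative to each 1000000 of the scaled library size) were called higher or lower where the ratio reached 1.5-fold and its counting interval excluded equality. Of the 27 members that reached this level, 8 were higher (C1qb, C1qc, Fcna, Cfp, C8g, C5ar2, Cd59a and Cd46), 5 were lower (C1ra, Masp1, Hc, C7 and Cd93) and 14 met neither criterion. The 8 higher members make 29.6% of those measured, against 14.9% of all 14518 genes at this level, and the 5 lower members make 18.5%, against 19.1% of all genes. With the trend of ratios with exonic length removed, 4 of 27 members were higher (14.8%), against 14.1% of all genes, so the share of higher members was then near that of all genes. That setting ended the calls of C1qb, C1qc, C8g, C5ar2 and Cd59a and added C3ar1. C5ar2 and C3ar1 then lay just either side of the 1.5-fold line, at log2 ratios of 0.584 and 0.585. At a size of 2-fold, Fcna and Cd46 were higher, as were 7.25% of all genes, and Masp1, C7 and Cd93 were lower, as were 6.04% of all genes. Fcna and Cd46 were under 1 CPM in the control library and entered through the PM2.5 library, and Masp1 entered through the control library. The median log2 ratio of the 27 members was -0.07 and that of all genes -0.09. Scaling by library totals or by the upper quartile raised every log2 ratio by 0.23 and 0.14. Both settings gave 10 higher and 3 lower members, and library totals turned 2163 higher and 2776 lower of all genes into 3456 and 1440, while the upper quartile gave 2837 and 1913. The remaining 8 members, Masp2, Fcnb, Cfb, C8a, C8b, C9, Vsig4 and Cfi, had a mean under 1 CPM.

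**Figure D1:**
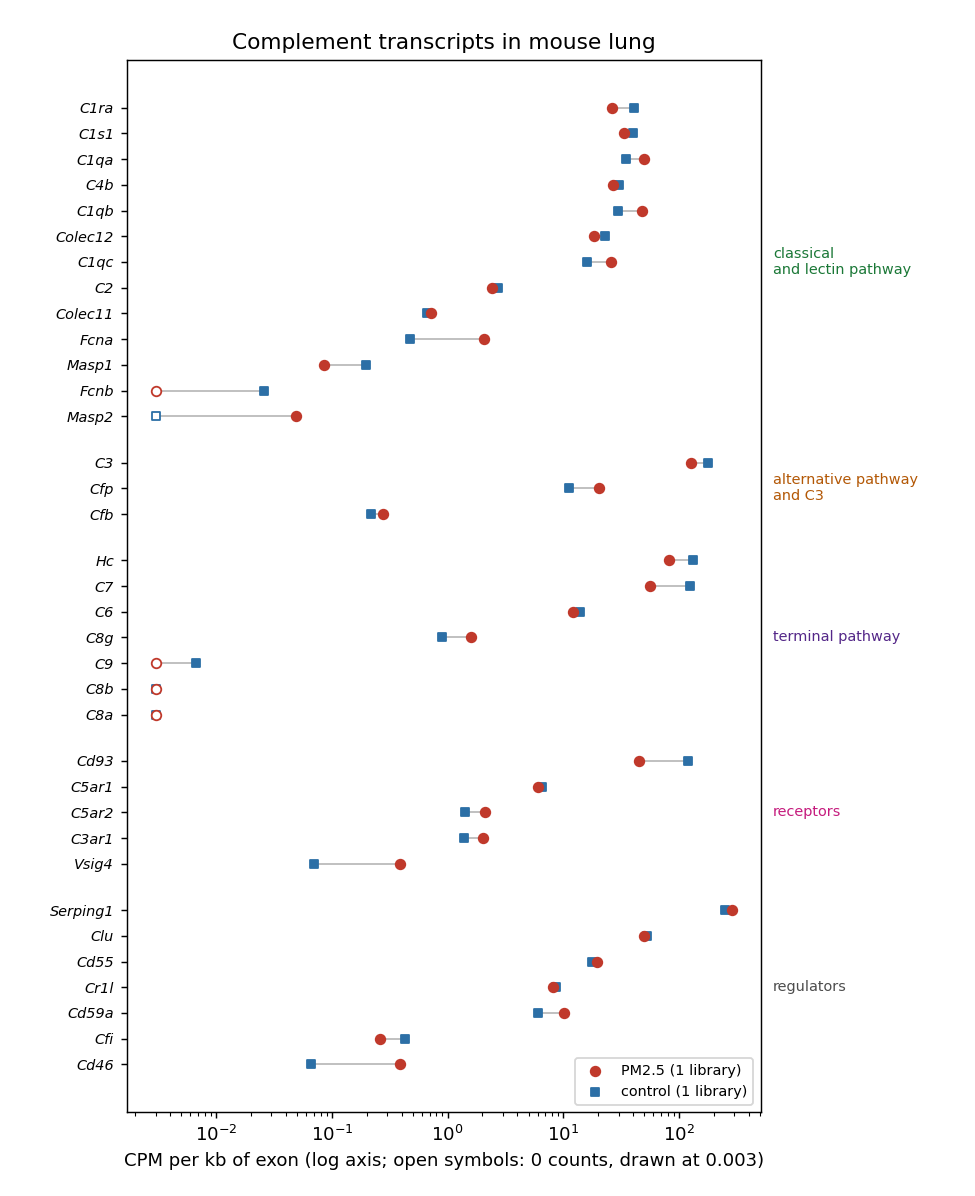
Level of each complement gene in CPM per kb of exon (log axis), with the PM2.5 library as red circles and the control library as blue squares, grouped by role. Open symbols mark 0 counts. Serping1, C3, Hc and C7 lead in both libraries, and C8a and C8b had 0 counts in both.

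Levels between genes were compared per kb of annotated exon. Serping1, the inhibitor of C1 and of the MASP proteases, was the most abundant member at 284 CPM per kb in the PM2.5 library and 249 in the control library. C3, the central component, followed at 126 CPM per kb in the PM2.5 library and 177 in the control library. Hc, the mouse gene for C5, had 82.1 CPM per kb in the PM2.5 library and 133 in the control library. C7 was the fourth member in both, at 55.5 CPM per kb in the PM2.5 library and 124 in the control library. Below these the order differed, with C1qa at rank 5 in the PM2.5 library and 9 in the control library, and Cd93 at rank 8 in the PM2.5 library and 5 in the control library. Summed per kb, regulators took 38.8% of the member total in the PM2.5 library and 29.3% in the control library, and terminal components 15.8% in the PM2.5 library and 23.8% in the control library. Hepatocyte markers were near absent, with a summed level of 3.91 CPM in the PM2.5 library and 2.35 CPM in the control library. None of these 10 markers had a mean of 1 CPM, and the fibrinogen gene Fgb had 0 counts in both libraries.

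The genes for the 3 chains of C1q, which assemble into the recognition molecule of the classical pathway, had higher levels in the PM2.5 library, but only C1qb and C1qc passed the 1.5-fold size. C1qa had 3237 counts in the PM2.5 library and 2077 in the control library, a ratio of 1.45 (95% counting interval 1.37 to 1.54) that passed the size with library totals and the upper quartile. C1qb had 3236 counts in the PM2.5 library and 1878 in the control library, 1.61-fold higher (1.52 to 1.70). C1qc had 3087 counts in the PM2.5 library and 1783 in the control library, 1.61-fold higher (1.52 to 1.71). The chains kept nearly equal shares of the C1q counts. C1qa took 33.9% in the PM2.5 library (exact binomial interval 32.9% to 34.8%) and 36.2% in the control library (34.95% to 37.5%), while C1qb took 33.8% in the PM2.5 library and 32.7% in the control library, and C1qc 32.3% in the PM2.5 library and 31.1% in the control library. Short transcripts were higher in general in the PM2.5 library, and with the trend with exonic length removed the log2 ratios of C1qa, C1qb and C1qc were 0.12, 0.28 and 0.47, against 0.54, 0.68 and 0.69 before, and neither C1qb nor C1qc passed the size any longer. Macrophage markers moved in both directions beside them. The interstitial macrophage and monocyte list had 5 of 12 genes higher and 3 lower, at 543 CPM in the PM2.5 library and 728 CPM in the control library. That sum was led by Lyve1, at 166 CPM in the PM2.5 library and 354 CPM in the control library. Its direction was set by this gene, and the median log2 ratio of the list was -0.04. The alveolar macrophage list had 2 of 10 higher and 1 lower, at 789 CPM in the PM2.5 library and 760 CPM in the control library. This sum was led by Chil3, at 475 CPM in the PM2.5 library and 415 CPM in the control library. Cidec, among the 2 higher genes, is also in the adipocyte marker list. The part of macrophages in the C1q values was not tested.

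The C1q genes lie together on the minus strand of GRCm38 chromosome 4, C1qb at 136880129 to 136886187, C1qc at 136889804 to 136893065 and C1qa at 136895917 to 136898803. Upstream sequences of C1qb and C1qc are shown because these neighbours were higher together, with those of Fcna, the member of the lectin pathway that was higher, and of C7, the terminal component that was lower. They are from RefSeq on GRCm38.p6, up to 250 bases before the start, cut where GENCODE places the gene's start earlier, and read 5′ to 3′ on the minus strand. The regions are chr4:136886201-136886450 for C1qb, chr4:136893066-136893164 for C1qc, chr2:25628031-25628224 for Fcna and chr15:5063774-5064023 for C7. Capitals mark matches on either strand to GAGGAA (core of the site of PU.1, a myeloid transcription factor) and TATAAA (the TATA box).
C1qb: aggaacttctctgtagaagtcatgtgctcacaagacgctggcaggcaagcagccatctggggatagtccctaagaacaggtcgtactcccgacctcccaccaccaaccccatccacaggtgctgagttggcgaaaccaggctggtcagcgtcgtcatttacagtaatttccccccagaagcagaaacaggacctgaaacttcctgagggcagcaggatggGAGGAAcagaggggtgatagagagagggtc
C1qc: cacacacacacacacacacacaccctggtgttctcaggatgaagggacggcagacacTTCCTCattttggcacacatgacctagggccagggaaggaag
Fcna: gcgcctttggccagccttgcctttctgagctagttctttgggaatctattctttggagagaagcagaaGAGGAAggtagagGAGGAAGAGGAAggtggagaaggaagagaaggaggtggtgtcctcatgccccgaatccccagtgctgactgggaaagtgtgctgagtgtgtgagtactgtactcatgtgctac
C7: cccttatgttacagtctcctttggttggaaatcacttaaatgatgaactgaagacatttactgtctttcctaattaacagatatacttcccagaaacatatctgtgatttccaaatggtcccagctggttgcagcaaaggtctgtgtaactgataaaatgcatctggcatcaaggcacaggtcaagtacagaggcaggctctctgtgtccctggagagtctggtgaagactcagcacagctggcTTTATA
In the full 250 bases, GAGGAA was found once upstream of C1qb and of C1qc and at 3 places upstream of Fcna. TATAAA was found once upstream of C7, on the opposite strand at -6 to -1 from the RefSeq start. Of 32851 RefSeq promoters of this length, 23.3% hold GAGGAA and 12.4% TATAAA. Among the 25 members with a RefSeq promoter entry, which leave out C1qa, 6 hold GAGGAA and 3 hold TATAAA. Those with GAGGAA are C1qb, C1qc, Fcna, C5ar2, Cd59a and Vsig4, while the higher members Cfp, C8g and Cd46 have no match to it. The C5ar2 match is only upstream of a RefSeq start inside the gene. Members were counted by gene, at any of their starts, whereas the shares of all promoters are by start. These matches describe letters and say nothing of binding.

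The proteases that C1q activates did not move with it. C1ra, the gene for C1r, had 4921 counts in the PM2.5 library and 7010 in the control library, 1.53-fold lower (1.47 to 1.59), a size it did not reach with library totals or the upper quartile, where its log2 ratio was -0.38 and -0.47. C1s1, the gene for C1s, had 6495 counts in the PM2.5 library and 7186 in the control library, a ratio of 0.842 (0.815 to 0.871). Both proteases are known products of fibroblasts, and fibroblast markers were split, with 4 of 12 genes higher, 7 lower and a summed level of 5109 CPM in the PM2.5 library and 7886 CPM in the control library. Whether that bears on C1ra was not tested. C4b, the component cleaved by C1s, had 9507 counts in the PM2.5 library and 10064 in the control library, a ratio of 0.880 (0.856 to 0.906). Its near copy C4a had 62 counts in the PM2.5 library and 16 in the control library. How the counting treated reads that match both is not given. C2, the protease subunit of the C3 convertase, had 585 counts in the PM2.5 library and 610 in the control library, a ratio of 0.894 (0.797 to 1.003), although 46.9% of its exonic bases are shared with other genes.

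Recognition molecules of the lectin pathway were rare apart from Colec12, a membrane collectin and scavenger receptor. Fcna, the plasma ficolin made by macrophages, had 175 counts in the PM2.5 library and 38 in the control library, 4.29-fold higher (3.01 to 6.27). Its level remained low, at 2.81 CPM in the PM2.5 library and 0.655 CPM in the control library. Fcnb, the ficolin of the myeloid lineage, had 0 counts in the PM2.5 library and 2 in the control library, which allows no ratio. Colec12 had 9945 counts in the PM2.5 library and 11651 in the control library, a ratio of 0.796 (0.775 to 0.817). Colec11, a soluble collectin, had 73 counts in the PM2.5 library and 62 in the control library, and its interval of 0.772 to 1.57 included equality. Masp1, whose gene encodes lectin-pathway proteases, had 52 counts in the PM2.5 library and 112 in the control library, 2.31-fold lower (1.65 to 3.28). Masp2, the protease that cleaves C4 and C2 in this pathway, had 10 counts in the PM2.5 library and 0 in the control library, a ratio of 3.11 with the control library set at a floor of 3 counts, for which the exact interval gives only a lower bound of 2.09. Tardbp, on the opposite strand, covers 54.9% of the Masp2 exonic bases and had 12964 counts in the PM2.5 library and 5456 in the control library. The strand setting of the counting is not given, so reads of these genes may not have been told apart.

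Of the alternative pathway, properdin was higher and C3 lower without reaching the size. Cfp, the gene for properdin, which stabilizes the C3 convertase and is released by neutrophils and monocytes, had 2206 counts in the PM2.5 library and 1115 in the control library, 1.84-fold higher (1.72 to 1.98). C3 had 40353 counts in the PM2.5 library and 52757 in the control library, a ratio of 0.713 (0.704 to 0.722). Neutrophil markers stood beside the properdin value, with all 12 genes higher and a summed level of 1754 CPM in the PM2.5 library and 533 CPM in the control library, and their part in it was not tested. Cfb, the gene for factor B, the protease of the alternative convertase, had only 49 counts in the PM2.5 library and 36 in the control library, a ratio of 1.27 (0.808 to 2.01). This count understates factor B where reads in shared exons were discarded. The predicted read-through gene Gm20547 on the same strand shares 79.5% of the Cfb exonic bases and 42.8% of those of C2, and had 0 counts in both libraries. Per kb of exon shared with no other gene, Cfb had 1.36 CPM in the PM2.5 library and 1.07 CPM in the control library, and C2 4.58 CPM in the PM2.5 library and 5.12 CPM in the control library.

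**Figure D2:**
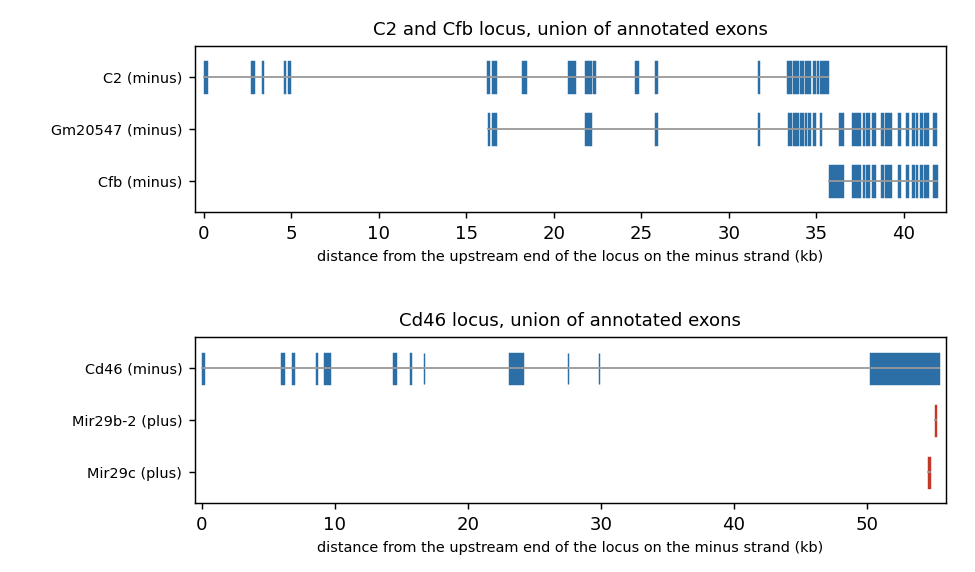
Annotated exons (blocks) of C2, Gm20547 and Cfb, upper panel, and of Cd46 with Mir29b-2 and Mir29c, lower panel, against distance in kb from the upstream end of each locus, with minus-strand genes in blue and plus-strand genes in red. Gm20547 spans exons of both C2 and Cfb, and the microRNA genes lie within the last exon block of Cd46 on the opposite strand.

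The terminal pathway was uneven, with its abundant genes lower and some subunits near absent. Hc had 32008 counts in the PM2.5 library and 48131 in the control library, 1.61-fold lower (1.59 to 1.64). That size was not reached with library totals, the upper quartile or the length trend removed, where the log2 ratio was -0.46, -0.55 and -0.56. C7, which joins the growing attack complex and lets it insert into membranes, had 9235 counts in the PM2.5 library and 19205 in the control library, 2.23-fold lower (2.18 to 2.29). C7 lies on chromosome 15 at 4988762 to 5063740, minus strand, and its neighbour C6, on the plus strand, had 2694 counts in the PM2.5 library and 2847 in the control library, a ratio of 0.882 (0.836 to 0.930). These neighbours thus differed by the size rule, with C7 past it and C6 not. C7 is known as a fibroblast and mesenchymal product, and among fibroblast markers Mfap4 and Npnt were lower, at 426 and 547 CPM in the PM2.5 library and 1377 and 1377 CPM in the control library, whereas Dcn was higher, at 351 CPM in the PM2.5 library and 131 CPM in the control library. C8g, the lipocalin chain of C8, had 149 counts in the PM2.5 library and 77 in the control library, 1.80-fold higher (1.36 to 2.41), but not past the size with the length trend removed, at a log2 ratio of 0.55. C8a and C8b, the pore-forming chains of C8, had 0 counts in both libraries, and C9 0 in the PM2.5 library and 1 in the control library. A count of 0 allows up to 0.0482 CPM in the PM2.5 library and 0.0517 CPM in the control library, counting error alone.

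Among receptors, Cd93 was lower and set the sum, and of the anaphylatoxin receptors C5ar2 was just past the size and C3ar1 and C5ar1 met neither criterion. Cd93, a membrane lectin first described as a C1q receptor and abundant on endothelium, had 18614 counts in the PM2.5 library and 45861 in the control library, 2.64-fold lower (2.60 to 2.69). Its gene is on chromosome 2 at 148436640 to 148443563, minus strand. Capillary endothelial markers were lower beside it, in 10 of 12 genes and none higher, with a summed level of 3730 CPM in the PM2.5 library and 8323 CPM in the control library. Kdr, the VEGF receptor gene of that list, was at 256 CPM in the PM2.5 library and 663 CPM in the control library, and the part of endothelium in the Cd93 value was not tested. Without Cd93, the other 4 receptors summed to 32.4 CPM in the PM2.5 library and 27.96 CPM in the control library, a ratio of 1.16 (1.08 to 1.24).

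C5ar1 and C5ar2, neighbours on chromosome 7, both encode receptors of C5a, the first signalling through G proteins and the second not. C5ar2 had 468 counts in the PM2.5 library and 289 in the control library, 1.51-fold higher (1.30 to 1.75), just past the size and no longer past it with DESeq2 size factors or with the length trend removed, where the log2 ratio rounds to 0.58. C5ar1 had 973 counts in the PM2.5 library and 983 in the control library, a ratio of 0.923 (0.843 to 1.01). Its log2 ratio of -0.12 became positive under library totals, at 0.11, and under the upper quartile, at 0.02. With the length trend removed it was -0.23. C5ar1 is known to be abundant on neutrophils. The neutrophil markers Csf3r and Cxcr2 had 322 and 86.8 CPM in the PM2.5 library and 81.9 and 28.5 CPM in the control library, and their relation to the C5ar1 value was not tested. C3ar1, the C3a receptor of myeloid cells, had 537 counts in the PM2.5 library and 343 in the control library, a ratio of 1.46 (1.27 to 1.68). It fell short of the size as scaled here and passed it with library totals, the upper quartile or, only just, the length trend removed. Vsig4, the macrophage receptor for C3b and iC3b, had 36 counts in the PM2.5 library and 6 in the control library, a ratio of 5.59 (2.33 to 16.2) at a level under 1 CPM in both.

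**Figure D3:**
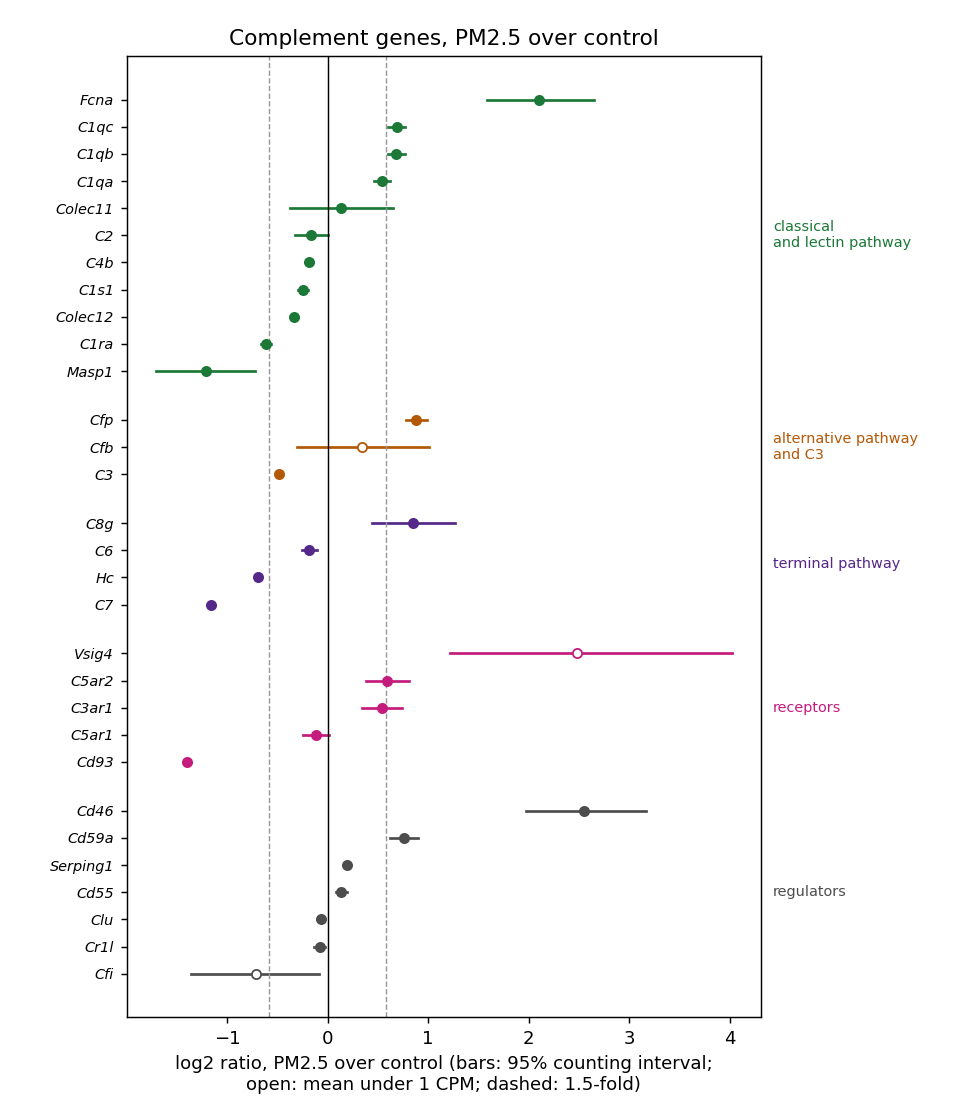
Log2 ratio of each complement gene, PM2.5 over control, with bars for the 95% counting interval, grouped by role. Dashed lines mark 1.5-fold and open points a mean under 1 CPM. Cd46, Vsig4 and Fcna stand farthest to the right, and Cd93, Masp1 and C7 farthest to the left.

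Regulators were mostly near their control level. Serping1 had 41105 counts in the PM2.5 library and 33583 in the control library, a ratio of 1.14 (1.12 to 1.16). Cd55, the decay-accelerating factor that dissociates convertases, had 5911 counts in the PM2.5 library and 5012 in the control library, a ratio of 1.10 (1.06 to 1.14). Cr1l, also called Crry, the broadly expressed rodent regulator of C3 convertases, had 5273 counts in the PM2.5 library and 5186 in the control library, and Clu, the gene for clusterin, which binds the terminal complex, 10659 in the PM2.5 library and 10419 in the control library. Their log2 ratios of -0.08 and -0.07 were positive with library totals and the upper quartile, and that of Cr1l also with the length trend removed. Cfi, the gene for factor I, which cuts C3b and C4b, had 36 counts in the PM2.5 library and 55 in the control library, a ratio of 0.610 (0.389 to 0.946) under 1 CPM.

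Cd59a and Cd46 were the regulators past the size. Cd59a, which blocks C9 insertion, had 1151 counts in the PM2.5 library and 633 in the control library, 1.69-fold higher (1.54 to 1.87), and a log2 ratio of 0.52, short of the size, with the length trend removed. Its close copy Cd59b was higher as well, with 149 counts in the PM2.5 library and 49 in the control library. The treatment of reads that match both copies is not given, and its effect was not tested. Cd46, a cofactor of factor I that mice express mainly in testis, had 182 counts in the PM2.5 library and 29 in the control library, 5.85-fold higher (3.94 to 8.98). Mir29b-2 and Mir29c, microRNA genes inside its last exon block on the opposite strand, had 100 and 173 counts in the PM2.5 library and 4 and 13 in the control library. Whether reads of the microRNA precursor entered the Cd46 count was not tested, and without a stated strand setting they cannot be told apart.

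**Figure D4:**
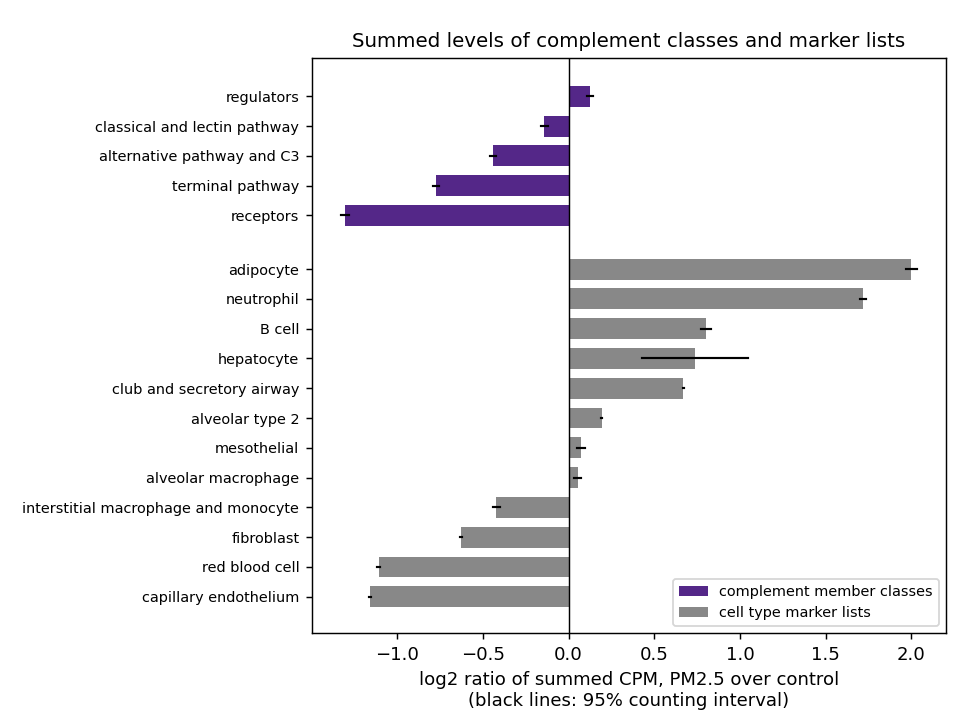
Log2 ratio of the summed CPM of the 5 complement classes (purple) and of 12 cell type marker lists (grey), PM2.5 over control, with 95% counting intervals. Receptors, a sum led by Cd93, lie at -1.30 beside capillary endothelium at -1.16, while neutrophil markers lie at 1.72.

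The summed level of each class was set by its abundant genes. Receptors summed to 332 CPM in the PM2.5 library and 819 CPM in the control library, a log2 ratio of -1.30, and terminal components to 709 CPM in the PM2.5 library and 1212 CPM in the control library, a log2 ratio of -0.77. The alternative pathway with C3 summed to 685 CPM in the PM2.5 library and 930 CPM in the control library, a log2 ratio of -0.44. The classical and lectin class summed to 664 CPM in the PM2.5 library and 733 CPM in the control library, a log2 ratio of -0.14 that was 0.089 with library totals. Regulators summed to 1034 CPM in the PM2.5 library and 947 CPM in the control library, a log2 ratio of 0.13. The medians over single genes differed in sign from the sums in the alternative class, at 0.20, and among receptors, at 0.21.

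Other genes of the system, 32 outside the 35, were described in the same way, and 31 were matched. Of the 15 at a mean of at least 1 CPM, 4 were higher and 3 lower, with a median log2 ratio of -0.05, against 14.9% higher and 19.1% lower among all genes. Cfd, factor D or adipsin, the protease that activates factor B, had 12883 counts in the PM2.5 library and 2062 in the control library, 5.82-fold higher (5.56 to 6.10). Fat cells are its main source in mice, and 9 of 10 adipocyte markers were higher, with a summed level of 637 CPM in the PM2.5 library and 159 CPM in the control library. Their part in the Cfd value was not tested. Cr2, the complement receptor of B cells, was 2.64-fold higher (2.34 to 2.98), beside 7 of 8 B cell markers, a list that holds Cr2 itself, at a summed 457 CPM in the PM2.5 library and 262 CPM in the control library. Itgam, the alpha chain of complement receptor CR3, was 1.60-fold higher, at 59.998 CPM in the PM2.5 library and 37.6 CPM in the control library, and Cd59b 2.83-fold higher. Itgb2, the beta chain that Itgam shares with Itgax, had a ratio of 0.848, and Itgax of CR4 a ratio of 0.715. Lower were Thbd, thrombomodulin, an endothelial cofactor that also restrains complement, by 1.74-fold, the pentraxin Ptx3, which binds C1q, by 2.40-fold, and the membrane regulator Susd4 by 1.51-fold. Under library totals neither Thbd, at a log2 ratio of -0.57, nor Susd4, at -0.36, reached the size, and Susd4 also missed it with the upper quartile, at -0.45, and with the length trend removed, at -0.58.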

How the data were processed

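Lung mRNA was sequenced in 1 PM2.5 library and 1 control library. Per the labels' protocols, a KAPA stranded kit was used with paired reads of 125 bp on a HiSeq2500. TopHat2 2.1.1 and HTSeq 0.6.0 are named with the build mm10 in the submitters' processing notes. For the annotation release, the counting mode and its strand setting, nothing was given in the sources used here. The unit of both deposited files is the raw read count per gene, not normalized by the authors.

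Symbols, positions and exonic lengths (the union of annotated exons) came from GENCODE M21 on GRCm38, which mm10 denotes, and 35533 of 37315 identifiers matched. Library sizes were scaled by TMM in edgeR 4.0.16 (factors 1.08 for PM2.5 and 0.923 for control). Ratios of CPM, PM2.5 over control, carry exact 95% Clopper-Pearson intervals on the PM2.5 share of both libraries' counts. As reads without molecular identifiers are not independent molecules, intervals and floors cover counting error only. No p-value is given. Some genes of the wider list are counted but not reported here by name. The filter was a mean of 1 CPM or above. A count of 0 was set against 3 counts.

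Members and lists were chosen with earlier results of these data known. Every member is accounted for, and other complement genes are named where past 1.5-fold. C6, C1s1, Itgb2, Itgax, the sums without Cd93 and the marker genes named singly were chosen after their values were seen. Alternatives were library totals, upper quartile, the size factors of DESeq2 1.42.0, TMM without the 100 most abundant genes, thinning of the deeper library, other filters and sizes, and removal of the lowess trend with length (statsmodels 0.14.6). The ratio and calling steps were tested on simulated counts that held counting error alone and changes larger than 1.5-fold. Scaling and removal of the length trend were not simulated. Software was R 4.3.3 and Python 3.11.15 with scipy 1.17.1, numpy 2.4.6, pandas 2.3.3 and matplotlib 3.10.9.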

Additional observations from a re-analysis of the deposited data

How the results depend on the processing

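No paired analysis was possible because each group has 1 library and the labels number no replicates. With DESeq2 size factors, TMM without the 100 most abundant genes or thinning, class sums stayed within their counting intervals and counts within 1.5 times. With library totals and the upper quartile, the median log2 ratio of the members was 0.16 and 0.069, members lower numbered 3 and 3, and the summed log2 ratios were 0.089 and -0.0033 (classical and lectin), -0.21 and -0.30 (alternative), -0.54 and -0.64 (terminal), -1.07 and -1.17 (receptors) and 0.36 and 0.26 (regulators). These shifts follow from the scaling itself. Library totals also gave 1 other complement gene lower, and 3456 higher and 1440 lower of all genes. With the length trend removed, 4 members (Fcna, Cfp, C3ar1 and Cd46; 14.8%) and 14.1% of all genes were higher, and the sums were -0.37 (alternative), -0.70 (terminal), -1.18 (receptors) and 0.054 (regulators). Without a filter, the member median was 0.13, 5 other complement genes were lower, and 4471 of all genes were higher and 3104 lower. At 10 CPM the median was -0.12, with 4 members higher and 4 lower, and 866 of all genes higher and 2196 lower. Against 2163 higher and 2776 lower at 1 CPM, the fall was mostly in higher genes. At 2-fold, 2 members were higher (Fcna and Cd46) and 3 lower (Masp1, C7 and Cd93), 1 other complement gene was lower, and 1053 of all genes were higher and 877 lower. Of 31 members with a ratio, 24 kept its sign under all scalings, thinning and trend removal. C2, C4b, Colec11, C6, C5ar1, Clu and Cr1l, none of them past the size, did not. Depth limits the members under 1 CPM, whose intervals are wide.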

Other observations

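Some rare genes of the lectin and classical pathways differed between the libraries at a mean under 1 CPM. Rare genes in general leaned to the PM2.5 library. Without the filter, those called higher rose from 2163 to 4471 of all genes, and those called lower from 2776 to 3104. Higher ratios at this level are thus not particular to complement. Colec10, a collectin that forms complexes with Colec11, had 7 counts in the PM2.5 library and 107 in the control library, 16.4-fold lower (95% counting interval 7.69 to 41.8), while Colec11 itself had 73 in the PM2.5 library and 62 in the control library. Mbl1, the gene for mannose-binding lectin A, had 78 counts in the PM2.5 library and 32 in the control library, a ratio of 2.27 (1.49 to 3.54), and Mbl2 had 0 in both. C4a had a ratio of 3.61 (2.06 to 6.71). These genes were chosen after their values were seen.

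Antisense genes in general had more counts in the PM2.5 library, with a higher CPM there for 83.7% of 1154 antisense genes with a count, against 47.3% of 17465 protein-coding genes. Those that overlap complement genes are given as values and not set apart from this background. Gm13449, antisense to Hc, had 66 counts in the PM2.5 library and 6 in the control library, although Hc was lower. Gm15674, antisense to Cd55b, had 317 counts in the PM2.5 library and 32 in the control library, while Cd55b had 27 in the PM2.5 library and 44 in the control library. Gm16083, antisense to Cd55, had 14 counts in the PM2.5 library and 2 in the control library, and Fcnaos, antisense to Fcna, 10 in the PM2.5 library and 0 in the control library. Gm16567, antisense to C1s1, had 0 in both.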
